A study of Homo sapiens with 14 samples.

Results

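The 30 genes described here act in homologous recombination and in the Fanconi anemia pathway of DNA repair. They were chosen by name, from what their products do, and not by any measured value. They are BRCA1, BRCA2, PALB2, BARD1, RBBP8, RAD51B, RAD51C, RAD51D, XRCC2, XRCC3, RAD52, RAD54L, RAD54B, BLM, SLX4, MUS81, EME1, GEN1, FANCA, FANCB, FANCC, FANCD2, FANCE, FANCF, FANCG, FANCI, FANCL, FANCM, BRIP1 and UBE2T. Of the 30, 29 had at least 1 interval in the deposited lists, among 26333 gene symbols that did. FANCB, which codes for a scaffold subunit of the Fanconi core complex, was in no list, as were 14.3% of protein-coding symbols.

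The study asked which genes the transcription factors STAT5 and BCL6 occupy when RAC1/PAK1 signalling is raised or blocked. Chromatin immunoprecipitation with sequencing (ChIP-seq) was done in DLD-1, an established human colorectal adenocarcinoma line, with rabbit polyclonal antibodies to STAT5 or to BCL6. Control cells were transfected with an empty vector. Activator cells were transfected with pEGFP-C1199Tiam1, a plasmid that codes for a fragment of TIAM1, an exchange factor that activates RAC1, and were given vehicle. Inhibitor cells received the same plasmid and 20 microM EHT 1864, a RAC inhibitor, so they too carried the TIAM1 fragment. Vehicle or inhibitor was given for 16 h, and chromatin was taken 20 h after transfection in all groups. Because transfection was transient, each sample can mix cells that took up plasmid with cells that did not. The lists hold 2 libraries each of control BCL6, control STAT5 and activator STAT5 and 3 of inhibitor BCL6, and the other 5 of the 14 libraries (activator BCL6 and inhibitor STAT5) were not analysed here. The labels do not say that replicate libraries came from separate cultures, so their spread may be technical. The lists hold no expression values, so the identity of the cells was not checked against markers.

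Homologous recombination repairs a broken chromosome by copying the intact sister: the ends are trimmed to single strands, a recombinase loaded by BRCA2 and helped by its paralogs finds the matching sequence, and helicases and nucleases take apart the joined molecules that result. The Fanconi pathway acts on links between the strands of DNA that block a replication fork. Its core complex attaches ubiquitin to FANCD2 and FANCI, which calls in nucleases and hands the resulting break to recombination. BCL6 is a repressor and STAT5 an activator that is switched on by cytokine receptors, and their preferred DNA sequences overlap.

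The gene starts of 5 members are shown as examples. These members had intervals in treated cells, and their promoters hold sequences related to these factors or to cell-cycle control. FANCC also meets this description (TTCCCGCC, -115 to -108 bp from the start) and is not printed. A promoter was found for 28 of the 30 genes in the RefSeq table (GRCh38.p14), and the 250 bases before the start are printed 5′ to 3′ on the strand of the gene. For FANCD2 (chr3:10026187-10026436, plus strand), FANCM (chr14:45135680-45135929, plus) and GEN1 (chr2:17753888-17754137, plus) the capitals mark a match to TTCNNNGAA, the general STAT element. For BLM (chr15:90717096-90717345, plus) and FANCL (chr2:58241326-58241575, minus) they mark GGCGGGAA or its reverse complement TTCCCGCC, the core of an E2F element.
FANCD2: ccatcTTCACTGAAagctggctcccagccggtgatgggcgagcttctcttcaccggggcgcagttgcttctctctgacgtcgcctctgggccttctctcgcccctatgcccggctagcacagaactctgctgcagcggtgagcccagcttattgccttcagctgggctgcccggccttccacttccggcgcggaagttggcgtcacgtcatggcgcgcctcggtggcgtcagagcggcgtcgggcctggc
FANCM: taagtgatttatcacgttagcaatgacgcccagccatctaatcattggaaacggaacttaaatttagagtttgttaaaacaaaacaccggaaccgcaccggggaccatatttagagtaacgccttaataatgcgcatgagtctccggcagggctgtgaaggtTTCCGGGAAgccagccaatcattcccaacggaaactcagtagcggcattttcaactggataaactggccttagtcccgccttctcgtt
GEN1: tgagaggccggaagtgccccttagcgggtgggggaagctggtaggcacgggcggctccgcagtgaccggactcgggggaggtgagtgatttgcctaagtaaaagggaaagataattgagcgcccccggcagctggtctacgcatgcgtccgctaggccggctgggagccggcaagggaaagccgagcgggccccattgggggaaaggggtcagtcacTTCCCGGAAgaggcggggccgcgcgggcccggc
BLM: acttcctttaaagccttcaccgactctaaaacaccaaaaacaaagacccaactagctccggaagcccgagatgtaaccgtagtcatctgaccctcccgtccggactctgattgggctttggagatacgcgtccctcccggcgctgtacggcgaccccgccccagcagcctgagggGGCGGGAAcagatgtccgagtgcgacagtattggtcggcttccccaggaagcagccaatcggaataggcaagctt
FANCL: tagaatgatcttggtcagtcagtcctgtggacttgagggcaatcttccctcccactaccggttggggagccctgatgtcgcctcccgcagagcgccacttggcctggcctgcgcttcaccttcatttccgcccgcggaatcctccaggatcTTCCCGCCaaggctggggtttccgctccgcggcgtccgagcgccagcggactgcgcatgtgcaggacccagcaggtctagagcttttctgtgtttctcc

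The first motif, TTCNNNGAA, reads the same on both strands and was found within 300 bases (250 before and 50 after the start) in 4 of the 28 members with a promoter, which is 14.3%, against 8.98% of protein-coding symbols and 7.66% of all promoters of that length. They are FANCD2 (TTCACTGAA, -245 to -237 bp from the start), FANCM (TTCCGGGAA, -88 to -80), GEN1 (TTCCCGGAA, -33 to -25) and RBBP8 (TTCACAGAA, -250 to -242). The stricter form TTCCNGGAA, every match of which is also a match of the first motif, was in FANCM and GEN1, 7.14% of members against 1.46% of protein-coding symbols. TTCCTAGAA, a form preferred by BCL6 that is likewise contained in the first motif, was in 0 of 28 members and 0.391% of protein-coding symbols. GGCGGGAA, searched on both strands, was in 9 members (BLM, BRIP1, FANCC, FANCD2, FANCL, RAD52, RAD54L, XRCC2 and XRCC3), which is 32.1% against 5.21% of protein-coding symbols. Over the 250 bases before the start, the members' promoters had a median GC content of 62.8% and a median of 21 CpG, against 62.0% and 16 for protein-coding promoters. The part of base composition in the motif counts was not tested. RefSeq starts were not lined up with the gene starts of the lists, which are on GRCh37, so a match says nothing of whether an interval covers it.

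Each list gives intervals whose first base on the chromosome lies between 3000 bp upstream and 1000 bp downstream of a gene start. The rest of an interval can extend past these limits. Each interval has 1 whole number per library, which was read as a read count. These values were 0 or at least 2, and most of those above 0 were 2, so a single interval carries little precision. An interval enters a control list when 1 library holds it, whereas a treated list requires at least 2 in every library. The lists therefore differ in how hard they are to enter, and the counts of members are set against all protein-coding genes of the same list and not against each other. No test was made of these counts, and with 2 libraries against 2 an exact permutation test cannot go below p = 0.333. Positions are given along each gene, negative values being upstream, and paired values are those of replicates 1 and 2.

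Members were present in every list. The control STAT5 list held 28 of the 30 (93.3%), against 74.9% of 20052 protein-coding symbols, a share at which 22.5 members would be present. The control BCL6 list held 23 (76.7%), against 73.9%, close to the 22.2 members of that share. The activator STAT5 list held 12 (40.0%), against 26.1%, or 7.82 members. The inhibitor BCL6 list held 2 (6.67%), against 3.3%, or 0.989 members. The intervals of activator STAT5 that lie on a control BCL6 peak fell at 4 members (13.3%), against 7.43%. The intervals of inhibitor BCL6 on a control STAT5 peak fell at 1 member (3.33%), against 0.863%. Only the control BCL6 share lay near the share of all protein-coding symbols. At the inhibitor lists, the difference rests on 1 or 2 genes. Among symbols of any kind with an interval in any separate list, the shares were 85.6% in control BCL6 and 86.5% in control STAT5. For activator STAT5 and inhibitor BCL6 they were 29.2% and 3.66%. Beside this second background, the members' 76.7% in control BCL6 was the lower share.

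**Figure D1:**
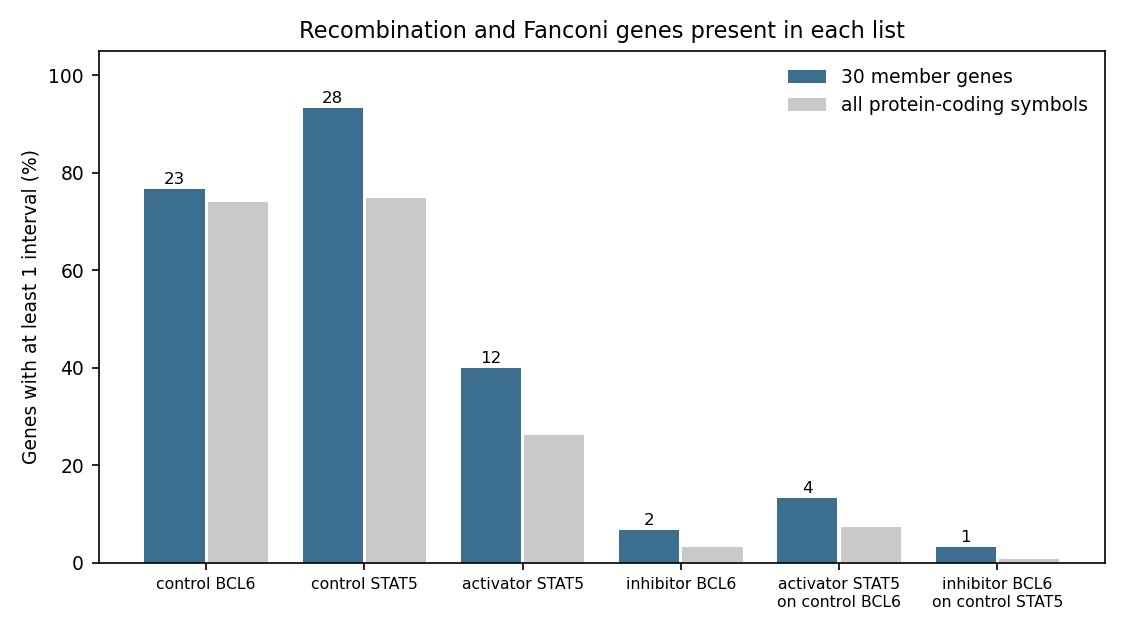
Share of genes (percent) with at least 1 interval in each of the 6 lists, for the 30 recombination and Fanconi genes (dark bars, number of genes above) and for all protein-coding symbols (grey bars). In percentage points the bars differ most in control STAT5 (93.3% against 74.9%) and activator STAT5 (40.0% against 26.1%), and they lie close in control BCL6 (76.7% against 73.9%).

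The control lists of the 2 antibodies differed in part of their members. Both control lists held 22 members (73.3%, against 63.6% of protein-coding symbols). Another 6 members (20.0%, against 11.3%) had control STAT5 intervals but none of control BCL6, namely BRCA1, BARD1, FANCD2, FANCG, FANCI and UBE2T. Only BRIP1 had control BCL6 intervals and none of control STAT5 (3.33%, against 10.3%). All 12 members of the activator STAT5 list were also in the control STAT5 list, as were all but 11.8% of the 5229 protein-coding symbols in the activator list. FANCL was the 1 member in both treated lists, as were 1.27% of protein-coding symbols, and the 1 member in all 4 separate lists.

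Single control libraries differed in how many members they held. Control BCL6 replicate 1 held 12 members and replicate 2 held 21, where 50.7% and 57.5% of protein-coding symbols were present. Control STAT5 replicates 1 and 2 held 20 and 23, beside 52.6% and 59.1%. The count of 23 in control BCL6 thus drops to 12 without replicate 2 and to 21 without replicate 1, so the gap between the antibodies depends on the libraries counted. The second replicate also had the higher sum of values with either antibody, 97187 against 84510 for control BCL6 and 100945 against 81105 for control STAT5, and the part of this in the counts was not tested. Only BLM, FANCA, FANCC, FANCL, RAD51D and RAD54B had a value in all 4 control libraries, 6 members where 16.6% of protein-coding symbols did.

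The 30 genes had 52 control BCL6, 56 control STAT5, 19 activator STAT5 and 3 inhibitor BCL6 intervals, 130 in all. Of these, 36 were listed with another gene as well. Of the 108 control intervals, 99 had a value in 1 library and 0 in the other, and 67 of these had the lowest value, 2. The 9 with values in both libraries were 5 of control BCL6 (9.62% of the members' intervals, against 9.19% in the whole list) and 4 of control STAT5 (7.14%, against 9.34%). Median widths were close to those of the whole lists, with 317 and 305 bp in control BCL6, 312 and 304 bp in control STAT5, and 161 and 142 bp in activator STAT5.

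**Figure D2:**
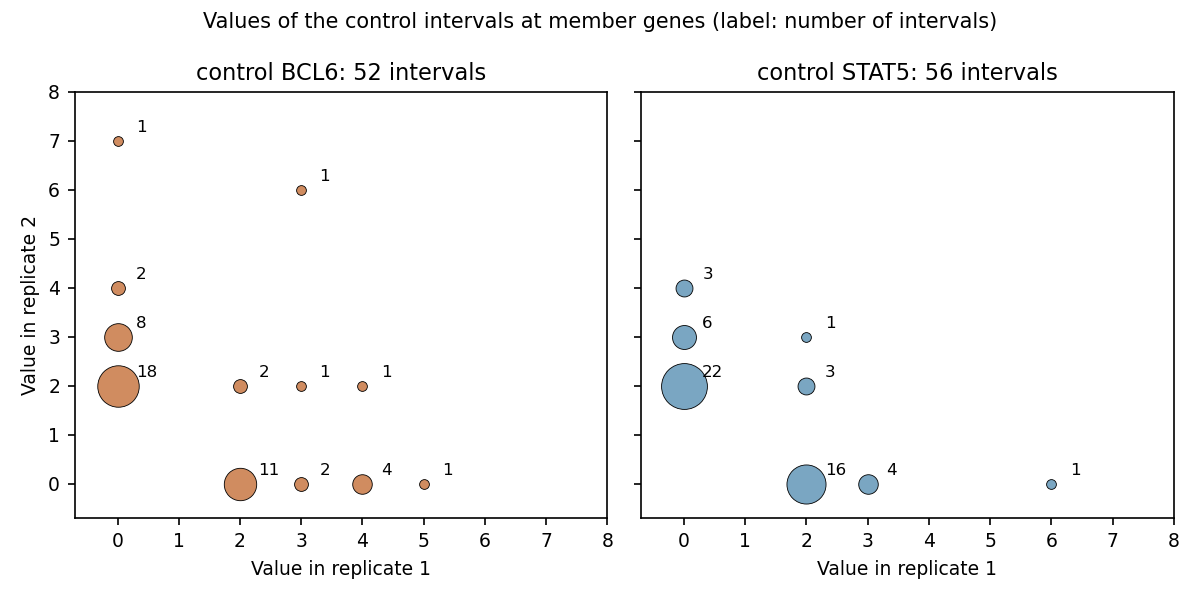
Values of the members' 52 control BCL6 (left) and 56 control STAT5 (right) intervals in replicate 1 (horizontal) and replicate 2 (vertical), with circle area and label giving the number of intervals. Most intervals lie on an axis, with a value in 1 library and 0 in the other, and 9 of the 108 lie off both axes.

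Of the genes of proteins that begin recombination, the control STAT5 list held all 5 with 10 intervals, beside 74.9% of protein-coding symbols. Control BCL6 held 3 of the 5 with 4 intervals, beside 73.9%, and a single treated interval was found, at BRCA2. Role groups this small, formed after seeing the data, cannot be told apart from these shares. BRCA1, a ubiquitin ligase subunit and tumour suppressor that promotes end trimming, had a control STAT5 interval across its start (chr17:41277473-41277906, -406 to 27 bp) with values of 0 and 4. A second lay just inside the gene (74 to 395 bp) with 2 and 0. Each of the pair was valued in a different replicate, and both were also listed with NBR2, whose start is beside that of BRCA1. BARD1, the partner subunit of BRCA1, had a control STAT5 interval valued in both libraries (chr2:215676080-215676541, -2113 to -1652 bp, 2 and 2) and another with 3 and 0. Neither gene was in the control BCL6 list, although a control BCL6 peak listed with NBR2 and inside BRCA1 lay 784 bp from the nearer of its intervals.

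PALB2, the bridge between BRCA1 and BRCA2, had 1 control BCL6 interval (0 and 3) and 2 of control STAT5 (2 and 0, and 0 and 2), both also listed with DCTN5. RBBP8, which codes for the end-trimming factor CtIP, had a control STAT5 interval across its start (-330 to 68 bp) with 3 and 0, 2 others with 0 and 2 and with 2 and 0, and 1 of control BCL6 with 2 and 0. BRCA2, the loader of the recombinase, had control BCL6 values of 0 and 2 at both of its intervals and control STAT5 values of 2 and 0 at its single one. Its activator STAT5 interval (chr13:32886952-32887103, 152 bp, -2660 to -2509 bp) had 2 and 2, the lowest values the list allows. That interval lay 206 bp from the control STAT5 interval and, seen from the neighbouring gene ZAR1L, at -861 bp. Of the 5 genes, only BARD1 had a single control interval valued in both libraries of an antibody.

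All 5 paralogs of the recombinase were in both control lists, as were 63.6% of protein-coding symbols, with 9 BCL6 and 7 STAT5 intervals. The activator STAT5 list held 2 of them, beside 26.1% of protein-coding symbols. RAD51B, a subunit of the complex that helps the recombinase filament form, had the highest treated values among all members. An activator STAT5 interval of 3 bp (chr14:68286992-68286994, 495 to 497 bp) and another of 186 bp (chr14:68287312-68287497, 815 to 1000 bp) both had 5 and 8. These 2 intervals lie directly on either side of a control STAT5 interval of 317 bp (chr14:68286995-68287311) that had 0 and 2, so all 3 form an unbroken stretch. Another activator interval, of 43 bp (chr14:68284020-68284062, -2477 to -2435 bp) had 4 and 2, lay 121 bp from a control STAT5 peak and is also listed with ZFYVE26 at -714 bp. Control BCL6 values at RAD51B were 0 and 2, 4 and 0, and 2 and 0.

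RAD51D, another subunit of that complex, had control intervals of both antibodies across its start, with 0 and 2 for BCL6 (-109 to 144 bp) and 3 and 0 for STAT5 (-53 to 225 bp). Its activator STAT5 interval (chr17:33450231-33450391, -1879 to -1719 bp) had 2 and 2 and was 1003 bp from the nearest control STAT5 peak. XRCC2 had 1 of the few control BCL6 intervals valued in both libraries (chr7:152373832-152374385, 554 bp, -1135 to -582 bp), with 4 and 2, and a control STAT5 interval of 280 bp with 2 and 0 lay wholly within it. RAD51C had 1 interval with each antibody (0 and 3 for BCL6, 0 and 2 for STAT5), both also listed with TEX14. XRCC3, which acts with RAD51C, had 0 and 3 for BCL6 and 2 and 0 at both STAT5 intervals. RAD51C, XRCC2 and XRCC3 were in no treated list.

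The 3 genes of annealing and translocase proteins had 10 control BCL6 and 9 control STAT5 intervals, most of them at RAD54B and RAD52. Over the 4 separate lists RAD52 had 7 intervals, and 9.14% of protein-coding symbols had as many. RAD54L had 3, and 63.8% had as many. RAD52, which anneals single strands, had 4 control BCL6 intervals with 0 and 3, 0 and 4, 4 and 0, and 2 and 0, and 3 control STAT5 intervals with 0 and 2, 0 and 2, and 0 and 4. The BCL6 interval with 0 and 4 crossed the gene start (-362 to 118 bp). Every RAD52 interval was thus valued in a single library, and the gene was in no treated list. RAD54L, a motor that remodels the recombinase filament, had 0 and 3 for BCL6 and 0 and 2 at both STAT5 intervals, so that it was absent from replicate 1 of either antibody.

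RAD54B, a second motor protein of this family on chromosome 8, had 11 intervals, the highest number among the members, and 0.334% of protein-coding symbols had as many. Its 5 control BCL6 intervals had 0 and 4, 2 and 0, 0 and 2, 3 and 0, and 0 and 2, and its 4 control STAT5 intervals had 2 and 0, 0 and 2, 2 and 0, and 0 and 2. No control interval was valued in both libraries, although every library was represented. Its 2 activator STAT5 intervals (chr8:95487496-95487609, -299 to -186 bp, and chr8:95487720-95487766, -456 to -410 bp) both had 2 and 2. The second, 47 bp wide, lay directly beside a control STAT5 interval with 0 and 2.

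Proteins that take apart recombination intermediates had the most treated intervals of any recombination group. These were 5 of activator STAT5 at 3 of the 5 genes, where 26.1% of protein-coding symbols were listed, and 1 of inhibitor BCL6. All 5 genes were in both control lists, as were 63.6% of protein-coding symbols, with 13 BCL6 and 10 STAT5 intervals. BLM, a helicase that dissolves joined molecules, had 9 intervals, as many as 1.85% of protein-coding symbols. Its 4 control BCL6 intervals had 2 and 0, 3 and 2, 2 and 2, and 0 and 3, and its 2 control STAT5 intervals had 2 and 0, and 0 and 2. Among the members, BLM alone had 2 control BCL6 intervals valued in both libraries.

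The 3 activator STAT5 intervals at BLM had 5 and 2 (chr15:91260064-91260321, 258 bp, -495 to -238 bp), 2 and 2 (chr15:91260931-91261102, 172 bp, 372 to 543 bp) and 2 and 3 (chr15:91261170-91261194, 25 bp, 611 to 635 bp). Each of them lay on a control BCL6 peak: the first lay wholly within the one with 2 and 2, and the other 2 on the one with 0 and 3. The second began at the base after a control STAT5 interval with 0 and 2, and the other 2 were 287 and 239 bp from a control STAT5 peak. BLM therefore had control intervals of both antibodies on either side of its start, all at low values.

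SLX4, the scaffold that holds junction nucleases together, was 1 of 2 members in the inhibitor BCL6 list. That interval (chr16:3662998-3663046, 49 bp, -1447 to -1399 bp) had 2, 4 and 2 in the 3 libraries, lay 39 bp from a control BCL6 interval with 0 and 2, and overlapped no control STAT5 peak, the nearest being 122 bp away. In control STAT5 SLX4 had an interval valued in both libraries (chr16:3663169-3663517, -1918 to -1570 bp, 2 and 3) and 2 others with 0 and 3 each. MUS81, a nuclease that SLX4 binds, had the highest single control value of any member, 0 and 7, at a control BCL6 interval of 748 bp across its start (chr11:65627574-65628321, -299 to 448 bp). Its other control BCL6 intervals had 0 and 3 each, so that replicate 1 held none, and its control STAT5 intervals had 0 and 2, 2 and 0, and 0 and 4. All 6 are also listed with CFL1, the cofilin gene that starts nearby, and MUS81 was in no treated list.

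EME1, the partner of MUS81, had 0 and 2 at both control BCL6 intervals, 1 of which crossed its start (-58 to 249 bp), and 2 and 0 for control STAT5. Its activator STAT5 interval (chr17:48451076-48451172, 485 to 581 bp) had 2 and 3, stood 917 bp from the nearest control STAT5 peak and is also listed with MRPL27. GEN1, a second junction nuclease, had 2 and 0 at both control BCL6 intervals and 0 and 3 for control STAT5. The activator STAT5 interval at GEN1 (chr2:17935660-17935984, 482 to 806 bp) was the widest of the members' 19 at 325 bp, had 4 and 2 and lay 1254 bp from a control STAT5 peak and 2245 bp from a control BCL6 peak. At EME1 and GEN1 the treated interval was thus downstream of the start, and at EME1 it lay 235 bp from the nearest control BCL6 peak.

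**Figure D3:**
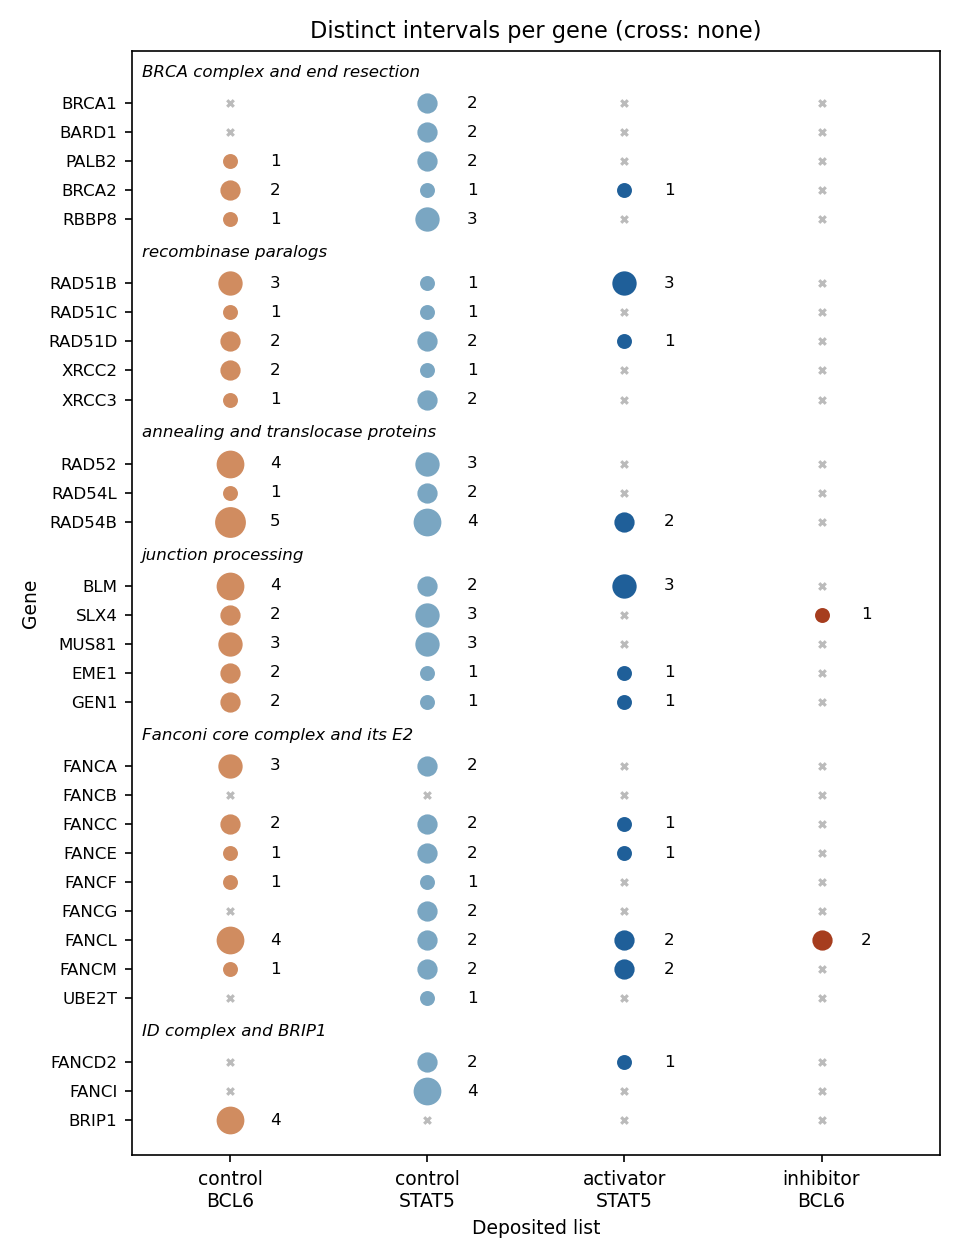
Number of distinct intervals at each of the 30 genes, grouped by role, in the control BCL6, control STAT5, activator STAT5 and inhibitor BCL6 lists, with circle area and label giving the number and a cross marking none. RAD54B, FANCL and BLM have the most, 11, 10 and 9 intervals, and FANCB has none.

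The Fanconi core complex and its ubiquitin-conjugating enzyme UBE2T numbered 9 genes. Of these, 6 were in control BCL6 (12 intervals), 8 in control STAT5 (14), 4 in activator STAT5 (6) and 1 in inhibitor BCL6 (2). In the same order, these lists held 73.9%, 74.9%, 26.1% and 3.3% of protein-coding symbols. FANCL, the ubiquitin ligase of the complex, was the most covered. Its 4 control BCL6 intervals had 0 and 2, 2 and 0, 3 and 6, and 2 and 0, and its 2 control STAT5 intervals had 2 and 2, and 2 and 0. The interval with 3 and 6 (chr2:58470310-58470782, -2275 to -1803 bp) was the single control interval of any member with at least 3 in both libraries, and the one with 2 and 2 (chr2:58468310-58468887, -380 to 197 bp) crossed the gene start.

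In treated cells FANCL had 2 intervals of activator STAT5, both far upstream, and 2 of inhibitor BCL6, nearer the start. The activator intervals had 2 and 2 (chr2:58470659-58470850, -2343 to -2152 bp) and 3 and 5 (chr2:58471495-58471656, -3149 to -2988 bp). The first shared 124 bp with the control BCL6 peak that had 3 and 6, and the second lay 292 bp from any. The inhibitor BCL6 intervals had 3, 3 and 6 (chr2:58468390-58468454, 65 bp, 53 to 117 bp) and 2, 3 and 5 (chr2:58469776-58469891, 116 bp, -1384 to -1269 bp). The first lay wholly inside the control STAT5 peak at the start, whereas the second shared only 3 bp with a control STAT5 peak that had 2 and 0. For the first, the shared list gives control STAT5 values of 0 and 2 where the control list gives 2 and 2, a disagreement within the deposited lists.

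FANCL also lies in a stretch where control intervals, both antibodies pooled, and activator STAT5 intervals were dense. Inhibitor BCL6 intervals were not counted in these windows. In the 5 Mb window around it there were 5.67 control and 1.1 activator STAT5 intervals per gene start, against 3.09 and 0.318 in the whole lists and a median of 3.21 and 0.324 over the members. Around RAD54B the window held 4.12 and 0.49, around RAD51B 3.16 and 0.492, and around BLM 2.8 and 0.402. The part of this density in the counts at FANCL was not tested. Without FANCL, the inhibitor BCL6 list keeps 1 member with 1 interval and none on a control STAT5 peak.

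FANCM, a motor that anchors the core complex on DNA, had 2 activator STAT5 intervals only a few bases apart (chr14:45602794-45603062, -2343 to -2075 bp, and chr14:45603069-45603124, -2068 to -2013 bp), both with 3 and 2. Its control values were 0 and 2 for BCL6 and 0 and 3, and 0 and 2, for STAT5. FANCC, an adaptor subunit, had values in both libraries with both antibodies: 2 and 2 at a control BCL6 interval across its start (chr9:98079555-98080025, -34 to 436 bp) and 2 and 2 at a control STAT5 interval just upstream (chr9:98080123-98080591, -600 to -132 bp). These 2 intervals did not overlap, with 97 bp between them. Its activator STAT5 interval (chr9:98082986-98083053, -3062 to -2995 bp) had 2 and 5, 1790 bp from a control STAT5 peak and 10 bp from a control BCL6 peak with 0 and 2. FANCE, which links the core complex to FANCD2, had 0 and 2 for control BCL6, 0 and 3, and 2 and 0, for control STAT5, and 2 and 3 at an activator STAT5 interval inside the gene (chr6:35420962-35421197, 823 to 1058 bp).

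The remaining core members had control intervals alone. FANCA had control BCL6 values of 0 and 2, 5 and 0, and 2 and 0, and control STAT5 values of 0 and 2, at an interval across its start (-18 to 287 bp), and 2 and 0. FANCF had 0 and 2 with each antibody. FANCG had control STAT5 intervals alone, with 2 and 0, and 0 and 2, and UBE2T a single one with 3 and 0. Together with FANCB, these genes make up the 5 of 9 without a treated interval.

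FANCD2 and FANCI, the pair that receives ubiquitin, and BRIP1, a helicase that binds BRCA1, were each in 1 control list alone. Each of their control intervals was valued in a single library. Both control STAT5 libraries held an interval at FANCI, and both control BCL6 libraries held one at BRIP1. At FANCD2 control STAT5 replicate 2 was the only control library with a value. Whether these genes differ by antibody was not tested. FANCI had 4 control STAT5 intervals with 0 and 2, 6 and 0, 0 and 2, and 0 and 2, and the 6 was the highest control STAT5 value at any member. The nearest listed control BCL6 interval to any of these was 90623 bp away. The lists leave out sequence outside the windows around gene starts, so this distance does not describe the stretch between. FANCD2 had control STAT5 values of 0 and 2, and 0 and 3, none for BCL6, and an activator STAT5 interval just upstream of its start (chr3:10067799-10068050, 252 bp, -300 to -49 bp) with 2 and 2, also listed with CIDECP. BRIP1 had the reverse, 4 control BCL6 intervals with 4 and 0, 3 and 0, 4 and 0, and 0 and 2, and no interval of STAT5 in control or activator cells. At BRIP1, replicate 1 thus carried 3 of the 4 intervals and the higher values, whereas at FANCI replicate 2 carried 3 of 4.

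**Figure D4:**
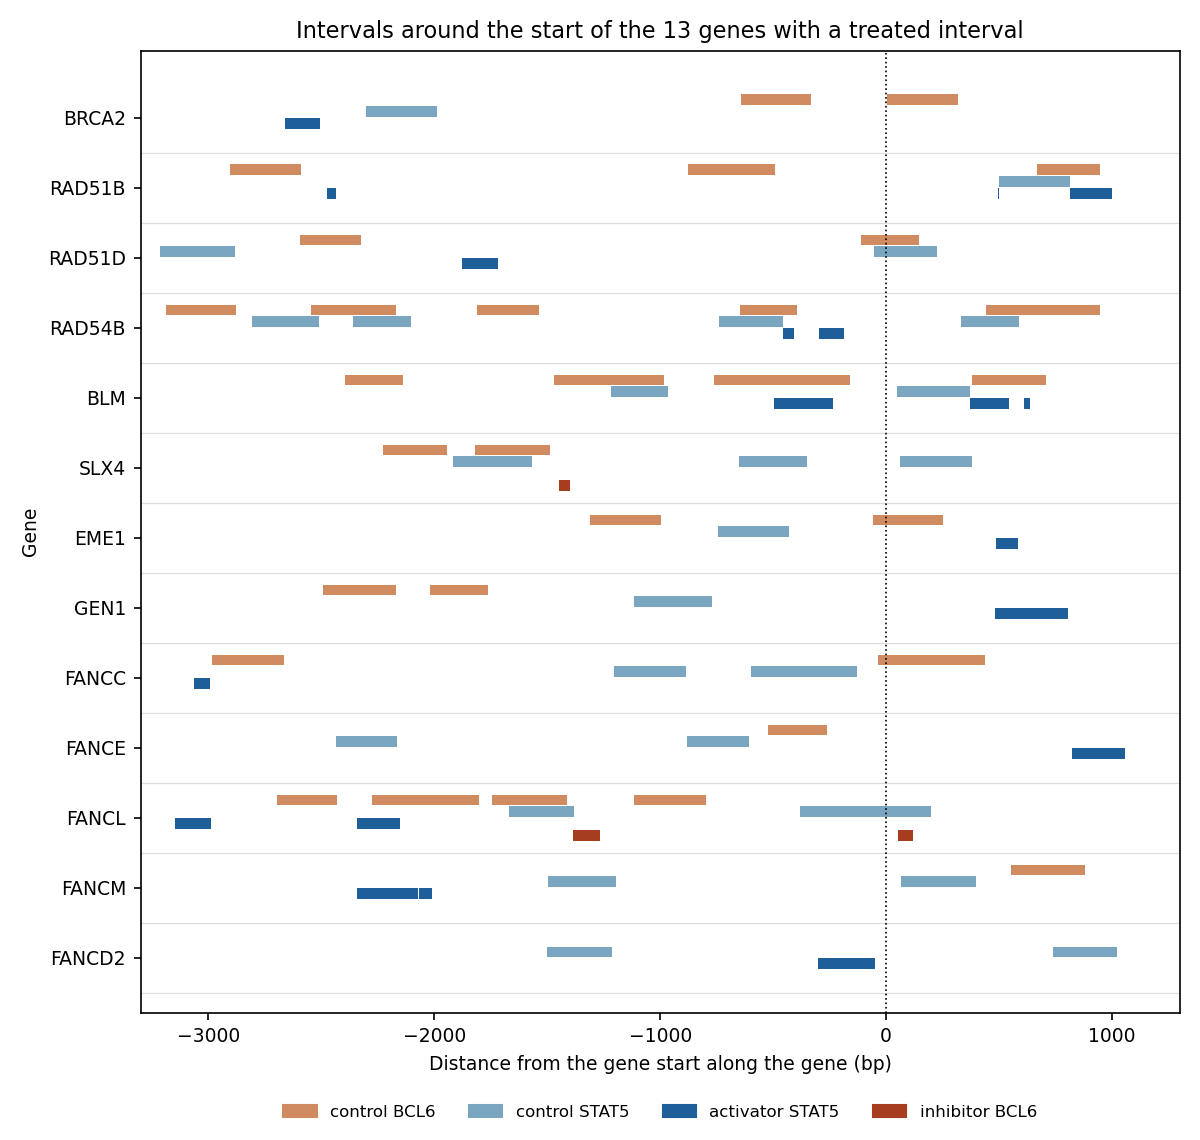
Position of every interval along the 13 genes with a treated interval, in bp from the gene start (0, dotted line; negative is upstream), coloured by list. No treated interval crosses a gene start. The activator intervals at BRCA2, FANCC and FANCM, and 1 at FANCL, lie upstream of all control intervals of the same gene.

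No treated interval of a member crossed its gene start. Control intervals spanned the gene start at 5 of 52 places for BCL6 (9.62%, against 7.2% in the whole list) and 6 of 56 for STAT5 (10.7%, against 7.34%). For activator STAT5 this was 0 of 19, where 3.36% of that list spanned a start. Within 1000 bp of the start lay 11 of the 19 (57.9%, against 51.6%), those of BLM, RAD54B, EME1, GEN1, FANCE and FANCD2 and 2 of the 3 at RAD51B. The other interval of RAD51B and those of BRCA2, RAD51D, FANCC, FANCL and FANCM lay farther upstream.

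The 2 antibodies shared ground in control cells at 11 of the 22 members in both control lists, against 55.4% of protein-coding symbols in both. These were BLM, FANCA, FANCL, MUS81, RAD51B, RAD51D, RAD52, RAD54B, RAD54L, SLX4 and XRCC2. For BCL6, BLM, FANCC, FANCL and XRCC2 had an interval valued in both libraries, 4 of 23 members beside 16.7% of the protein-coding symbols of that list. For STAT5 these were BARD1, FANCC, FANCL and SLX4, 4 of 28 beside 18.5%. Both counts and the sharing thus lay near their backgrounds.

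An activator STAT5 interval on a control BCL6 peak is a place where STAT5 was found in activated cells and BCL6 in control cells. Such were 6 of the members' 19 intervals (31.6%, against 25.6% of 14047), 3 at BLM and 1 each at FANCL, RAD51B and RAD54B. In the control BCL6 libraries the shared list gives 2 and 2, 0 and 3, and 0 and 3 at BLM, 3 and 6 at FANCL, and 2 and 0 at both RAD51B and RAD54B. Only BLM and FANCL are left without control BCL6 replicate 1, and only 2 intervals lie on a control BCL6 peak with values in both libraries. In the other direction, 2 of the 3 inhibitor BCL6 intervals lay on a control STAT5 peak, both at FANCL, against 23.7% of 1652.

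No treated interval shares a base with a control peak of its own antibody, 0 of 14047 for STAT5 and 0 of 1652 for BCL6 in the whole lists. Since it holds for every treated interval, this absence is a property of the lists and not a result about binding. The widths, positions, contacts and gaps of treated intervals are bound by it. Of the members' activator STAT5 intervals, 4 of 19 touched a control STAT5 peak with no base between (21.1%, against 18.9%), both intervals downstream at RAD51B and 1 each at BLM and RAD54B. In each case the control peak had 0 and 2, and none of the 4 contacts remains without control STAT5 replicate 2. The 2 contacts at RAD51B are with the same control peak, and the 2 intervals have equal values, so merging neighbours of equal values makes them 1 place. The median gap to the nearest control STAT5 peak was 483 bp, against 471 bp in the whole list. Contact was seen for 0 of the 3 inhibitor BCL6 intervals (against 14.3%), though 2 of them, at SLX4 and FANCL, came within 100 bp of a control BCL6 peak. For activator STAT5 the contacts and gaps of the members were thus near those of the whole list, whereas the 3 inhibitor BCL6 intervals had a median gap of 39 bp, against 453.5 bp.

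**Figure D5:**
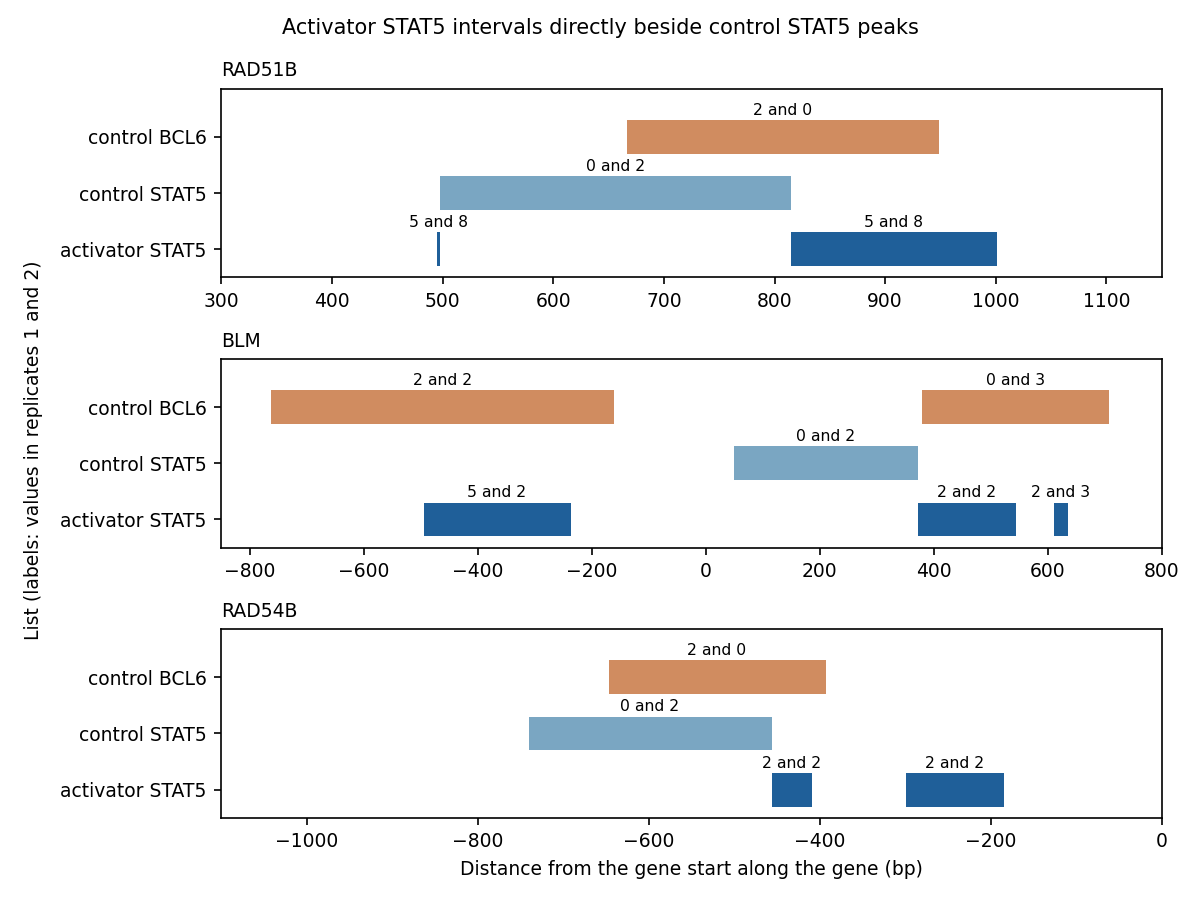
Intervals at RAD51B, BLM and RAD54B in bp from the gene start, in control BCL6, control STAT5 and activator STAT5, with the values of replicates 1 and 2 above each bar. The activator intervals at 815 to 1000 bp of RAD51B, 372 to 543 bp of BLM and -456 to -410 bp of RAD54B begin or end where a control STAT5 interval with 0 and 2 ends or begins.

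Another 52 genes of the same pathways, among them the other resection, dissolution and replication protein A factors, served for comparison. The control STAT5 list held 42 of them (80.8%), control BCL6 37 (71.2%), activator STAT5 15 (28.8%) and inhibitor BCL6 3 (5.77%), namely RECQL, RFWD3 and POLQ. In the activator list this share lay nearer to that of protein-coding symbols, 28.8% beside 26.1%, than did the members' 40.0%. Of the 52, CENPS, CENPX, SLX1A, SLX1B, MAD2L2, SEM1, BRCC3 and RTEL1 were in no separate list, as were 14.3% of protein-coding symbols. Among the members this held for FANCB alone (3.33%), a lower share than that of protein-coding symbols. Such absent genes lower the shares of the 52, and their part in the difference from the members was not tested. Activator STAT5 intervals on a control BCL6 peak fell at 4 of the 52 (7.69%, near the 7.43% of protein-coding symbols), DMC1, a meiotic recombinase, RMI1, a subunit that works with BLM, INIP and NABP1, the latter 2 parts of single-strand binding complexes. NABP1 had 2 such intervals, with 3 and 3 and with 2 and 7. RMI1 had 2 and 2 at its single activator interval. In the inhibitor list POLQ, the polymerase of a rival end-joining route, had 2, 4 and 3 on a control STAT5 peak.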

How the data were processed

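The submitters' processing notes name CASAVA 1.8.2, Bowtie 0.12.7 and the build GRCh37. Which step each tool served, and how peaks were called, are details not given in the sources used here. As deposited by the authors, the data are 6 interval lists with a whole number per interval and library. The file header names no quantity, and these deposited values were read as counts of reads; among intervals valued in control BCL6 replicate 1 alone, the median width was 291 bp where the value was 2 and 468 bp where it was 5. Library depth is unknown, and sums of listed values are not depths. For 2 lists the name speaks of a treated condition while the columns are control libraries, so each list is described by its columns. The labels name no sequencing batch.

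Rows were taken by gene symbol, and each distinct interval was counted once (Python 3.11.15, pandas 2.3.3). Overlap meant at least 1 shared bp, contact no base between. The interval code was tested on simulated data. The background was the protein-coding symbols of the RefSeq table; the plan had put all its 59778 symbols first, and this was changed after the data were seen, because every member is protein-coding. Of 26333 listed symbols, 26166 matched the table, 24805 directly. The members, the 52 further pathway genes and the motifs were chosen with earlier results of these data known; the role groups were formed after seeing the data. All members with a treated interval, an interval valued in both control libraries, or none in a control list were named. Counts were recomputed with other widths, distances, values, overlaps and backgrounds and with each library left out.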

Additional observations from a re-analysis of the deposited data

How the results depend on the processing

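Over 98 alternatives to 21 counts and shares, 53 stayed within 1.5 times and 45 moved further. Some of the 53 could not have moved, so the tally does not measure stability. Every listed treated interval has a value in every library, so leaving out 1 treated library removes no interval. Control intervals are at least 250 bp wide, so the limit of 50 bp removes none of them. Library depth is unknown, so its effect on the counts was not tested. Most values above 0 are at the lowest level listed, and the member counts are small. No paired analysis was possible because the results come from no test and the labels give no replicate numbers that pair the libraries. Leaving out FANCL and merging neighbouring treated intervals with equal values (within 500 bp) were chosen after seeing the data. The merging gave 16 places for the 19 activator STAT5 intervals and 3 for the 3 of inhibitor BCL6.

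Counting intervals within 1000 bp of the start left 29 control BCL6, 34 control STAT5 and 11 activator STAT5 intervals (7 members), 1 inhibitor BCL6 interval (1 member), 2 members with a value in both control STAT5 libraries, and 6 members with control intervals of both antibodies sharing a base. A value of at least 3 in 1 library left 13 members and 21 intervals in control BCL6 and 13 members and 15 intervals in control STAT5. A value in both libraries left 4 members and 5 intervals in control BCL6 and 4 members and 4 intervals in control STAT5; at least 3 in both left 1 member (FANCL) and 0. At least 3 in every library left 2 members and 3 intervals in activator STAT5 (RAD51B and FANCL) and 1 member and 1 interval in inhibitor BCL6. Intervals of at least 50 bp left 1 inhibitor BCL6 member and 2 activator contacts.

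Leaving out each control library gave 12 to 21 members and 23 to 34 intervals in control BCL6, 25 to 35 intervals in control STAT5, 2 to 4 members with an activator interval on a control BCL6 peak, 0 to 4 activator contacts, and 1 to 2 inhibitor BCL6 intervals on a control STAT5 peak. With control peaks valued in both libraries, 2 activator intervals at 2 members lay on a control BCL6 peak and 1 inhibitor interval on a control STAT5 peak; an overlap of at least 50% also left 1. A gap of at most 100 bp gave 2 inhibitor intervals near a control BCL6 peak. Without FANCL, inhibitor BCL6 had 1 member and 1 interval, and 0 intervals at 0 members on a control STAT5 peak. Over all symbols of the reference table the background was 37.4% in control BCL6, 37.8% in control STAT5, 12.8% in activator STAT5 and 1.6% in inhibitor BCL6.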
